A study of Caenorhabditis elegans with 12 samples.

Results

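The gut specification GATA cascade of *C. elegans* was followed here through 6 genes, *med-1*, *med-2*, *end-1*, *end-3*, *elt-2* and *elt-7*. They were taken by name, and every probe set that the platform annotation assigns to them was read. Of the 6 genes, 5 had a probe set, out of 17118 genes with a probe set of their own on the array. *elt-2* was represented by 2 probe sets and *med-1*, *end-1*, *end-3* and *elt-7* by 1 each, which gave 6 probe sets. *med-2* had none in the annotation used. Whether the *med-1* probe set also reads *med-2*, its near-identical copy, was not given in the sources used here. In the RefSeq gene table *med-1* and *elt-2* lie on chromosome X, *med-2* on chromosome III, and *end-1*, *end-3* and *elt-7* on chromosome V.

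All samples came from KM267, a strain that carries *hlh-1*, the gene for the worm MyoD factor, under heat shock control. About 80 embryos per sample were gathered at the 1- and 2-cell stages, and 3 independent samples were made for each of 4 groups. The 0 h group had no heat pulse, while the 2, 4 and 6 h groups were taken those times after 30 min at 34 °C, with 60 min of incubation before the pulse. The transgene was present in every group, and no pulsed embryos without it were analysed here, so that HLH-1, heat and developmental age cannot be told apart in a comparison with 0 h. Between pulsed groups, time since the pulse and developmental age advance together and cannot be told apart either. The age of the 0 h embryos when RNA was isolated was not given in the sources used here. *end-1* and *elt-7*, which in normal development are switched on only after several cleavages, already gave high signals in all 3 of these samples. In whole embryos, fewer cells of a type and less RNA per cell cannot be told apart.

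In normal embryos the cascade runs in steps. The maternal factor SKN-1 switches on *med-1* and *med-2* in the EMS blastomere, and the MED proteins, together with Wnt signaling that acts through POP-1, switch on *end-1* and *end-3* in its posterior daughter E, the founder of the whole intestine. END-1 and END-3 act briefly and turn on *elt-7* and *elt-2*, and ELT-2 then maintains its own gene and drives gut differentiation for life. All 6 are GATA-type zinc finger factors.

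Values are linear MAS5 signals, where each array had been scaled to the same trimmed mean. A reference level of 69.7 separates dim from brighter readings. It is the 40th percentile of signal on an array, as a median over the 12 arrays, and not a measure of background. Probe sets above this level in at least 3 of the 12 arrays were tested, 18264 in all, and all 6 of the cascade were among them. One *elt-2* probe set passed this filter only through arrays taken after the pulse, so that its calls against 0 h are not independent of the filter. A change is called when limma, fitted to all 12 arrays, gave an adjusted p under 0.05 and the fold was at least 1.7. Folds compare means of log2 signal. Where any array of the pair of groups did not exceed the reference level, lower signals of the dimmer group were raised to that level and the fold is a lower bound. The SD accompanies each mean signal, and the standard error from limma each log2 change. Replicate arrays had a Pearson's r between 0.836 and 0.885, taken over probe sets rather than over independent samples. The induced gene, *hlh-1*, rose from 247.5 ± 87.1 at 0 h to 3503 ± 631 at 2 h (SD over 3 arrays), which is in the direction of the labels, although whether its probe set reads the transgene was not given in the sources used here.

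Transcripts of *end-1*, *end-3* and *elt-7* were lower in every group taken after the heat pulse than before it. *end-1* lost nearly all of its signal by 2 h, while *elt-7* declined more slowly and reached its lowest levels from 4 h on. One of the *elt-2* probe sets moved the other way. It lay below the reference level on every 0 h array and above it on all 3 arrays at 2 h. At 4 h and 6 h, 2 of 3 arrays were above it. The other *elt-2* probe set and *med-1* gave readings around that level at all times and were not called. Of the 6 probe sets, 3 were called lower and 1 higher at 2 h against 0 h, where 9.55% of all tested probe sets were called lower and 15.5% higher. The counts were again 3 lower and 1 higher at 4 h, against 11.9% and 17.1% of all tested, and at 6 h, against 15.6% and 21.7%. The higher count was near the share over all tested at each time. With arrays scaled to a common median the 6 h background was 19.4% lower and 16.8% higher, the 3 lower calls held and the higher call did not. The 3 comparisons share the 0 h arrays, so that they are not independent of each other.

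**Figure D1:**
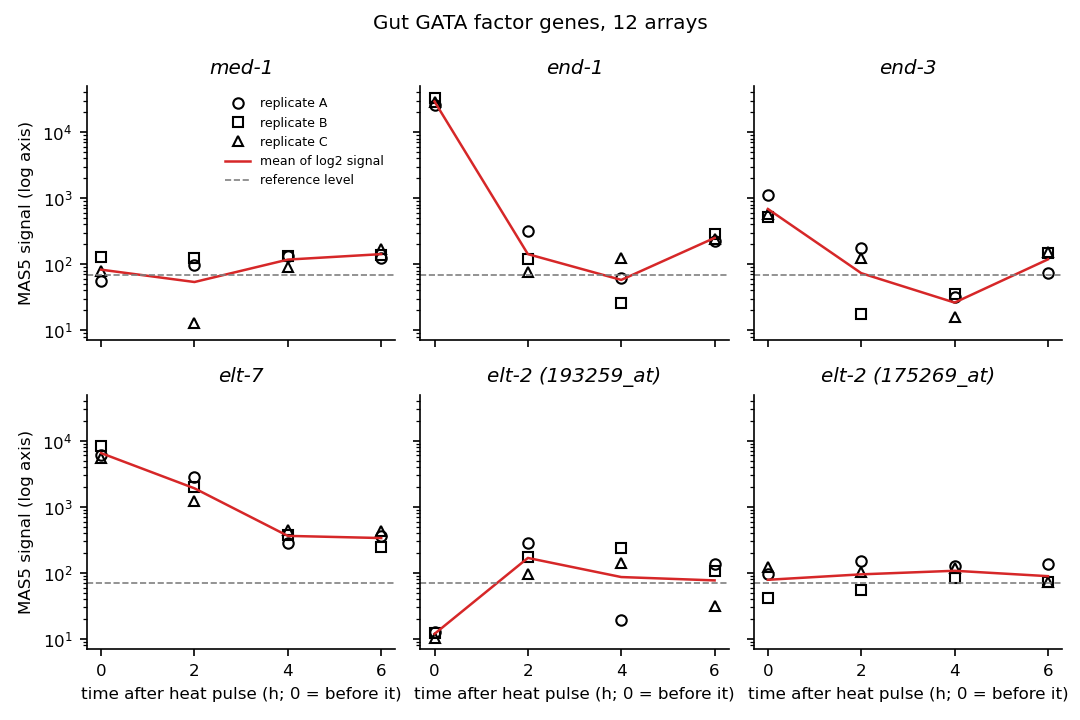
MAS5 signal (log axis) of the 6 probe sets of the cascade against time in hours, where 0 stands for samples before the heat pulse. Symbols are single arrays, 3 per time point, the red line joins the means taken on the log2 scale, and the dashed line is the reference level of 69.7. *end-1*, *end-3* and *elt-7* start high, *elt-2* at probe set 193259_at starts low, and *med-1* and the other *elt-2* probe set lie around the dashed line.

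The first zygotic step of the cascade is *med-1*, which specifies the EMS fate with *med-2*. Its signals were 54.8, 130.6 and 78.9 at 0 h, then 97.0, 125.0 and 12.8 at 2 h, 132.2, 133.9 and 91.5 at 4 h, and 123.5, 138.5 and 167.6 at 6 h. The groups overlapped in every comparison, and 1 array at 0 h and 1 at 2 h lay below the reference level. The log2 change was -0.62 ± 0.79 at 2 h, 0.51 ± 0.79 at 4 h and 0.78 ± 0.79 at 6 h, with adjusted p of 0.633, 0.699 and 0.483. The sign at 2 h turned without 2 h replicate C, the array at 12.8. Changes of the size of these errors were not detectable at a probe set this dim.

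*end-1*, which encodes a factor that helps commit E to endoderm, gave signals of 25499, 33397 and 29022 in the 3 arrays at 0 h. By 2 h they were 314.6, 118.8 and 76.8, a group mean of 0.58% of that at 0 h. At 4 h they were 61.6, 25.7 and 122.2, with only 1 of 3 arrays above the reference level. No array after the pulse came near those before it. The fall was 205-fold by 2 h, with a log2 change of -7.68 ± 0.53 (limma adjusted p = 7.47e-08). By 4 h it was at least 347-fold (log2 change -8.98 ± 0.53, limma adjusted p = 8.87e-09). The further drop from 2 h to 4 h, -1.30 ± 0.53 on the log2 scale, was not called (adjusted p = 0.132), although it was without 2 h replicate C (adjusted p = 0.0475) or 4 h replicate C (adjusted p = 0.018).

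At 6 h *end-1* signals stood at 225.4, 289.3 and 240.3, all above the reference level and all above the 3 arrays of 4 h. Both groups had received the pulse. The rise from 4 h to 6 h was called (log2 change 2.11 ± 0.53, limma adjusted p = 0.0124) and amounted to 2.98-fold or more. It lost the call without 6 h replicate B, at an adjusted p of 0.0567. The median log2 change of all tested probe sets in this step was 0.13, or -0.17 with arrays scaled to a common median, and *end-1* rose by 1.99 relative to the former. Even so, the 6 h mean was 0.859% of the 0 h mean and remained 116-fold below it (log2 change -6.86 ± 0.53, limma adjusted p = 1.03e-07).

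*end-3*, the paralog of *end-1* that acts beside it in E, was read at a dimmer probe set. Its signals were 1101.5, 510.4 and 573.3 at 0 h, 178.6, 17.7 and 123.7 at 2 h, 31.9, 35.1 and 16.1 at 4 h, and 73.6, 150.1 and 150.4 at 6 h. Every array after the pulse lay below every array before it, and none of the 4 h arrays exceeded the reference level. *end-3* fell at least 5.94-fold by 2 h (log2 change -3.23 ± 0.76, limma adjusted p = 0.0027). It was at least 9.84-fold lower at 4 h (log2 change -4.71 ± 0.76, limma adjusted p = 4.69e-05). At 6 h it was 5.79-fold lower, with a log2 change of -2.53 ± 0.76 (limma adjusted p = 0.011), a call that was lost without 0 h replicate A at an adjusted p of 0.0699. From 4 h to 6 h its groups did not overlap either, as with *end-1*, but the log2 change of 2.18 ± 0.76 missed the threshold at an adjusted p of 0.0542.

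*elt-7*, which works alongside *elt-2* in the differentiating gut, declined in 2 steps. The 0 h arrays read 6026, 8494 and 5415, the 2 h arrays 2813, 2022 and 1222, the 4 h arrays 282.8, 376.6 and 450.8, and the 6 h arrays 357.1, 247.2 and 434.0. All stayed above the reference level, so that its folds are ratios and not bounds. Groups overlapped only between 4 h and 6 h. The mean was 30.4% of the 0 h mean at 2 h, 5.57% at 4 h and 5.21% at 6 h. The fall was 3.42-fold by 2 h (log2 change -1.77 ± 0.29, limma adjusted p = 9.02e-05), 17.9-fold by 4 h and 19.3-fold by 6 h.

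Between pulsed groups *elt-7* fell 5.25-fold from 2 h to 4 h, with a log2 change of -2.39 ± 0.29 (limma adjusted p = 5.7e-06). It was the only one of the 6 probe sets called in that step, where 7.35% of all tested were called lower and 6.9% higher. From 2 h to 6 h it was again the only one called, 5.66-fold lower (limma adjusted p = 8.39e-07), where 14.5% of all tested were lower and 14.3% higher, or 19.8% and 10.4% with arrays scaled to a common median. From 4 h to 6 h *elt-7* changed by -0.11 ± 0.29 on the log2 scale (adjusted p = 0.862). In that last step *end-1* was the only called probe set of the 6, higher, against 8.39% lower and 7.73% higher of all tested, or 12.6% and 5.6% with arrays scaled to a common median. The call of *end-1* held under that scaling, at a log2 change of 1.82.

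**Figure D2:**
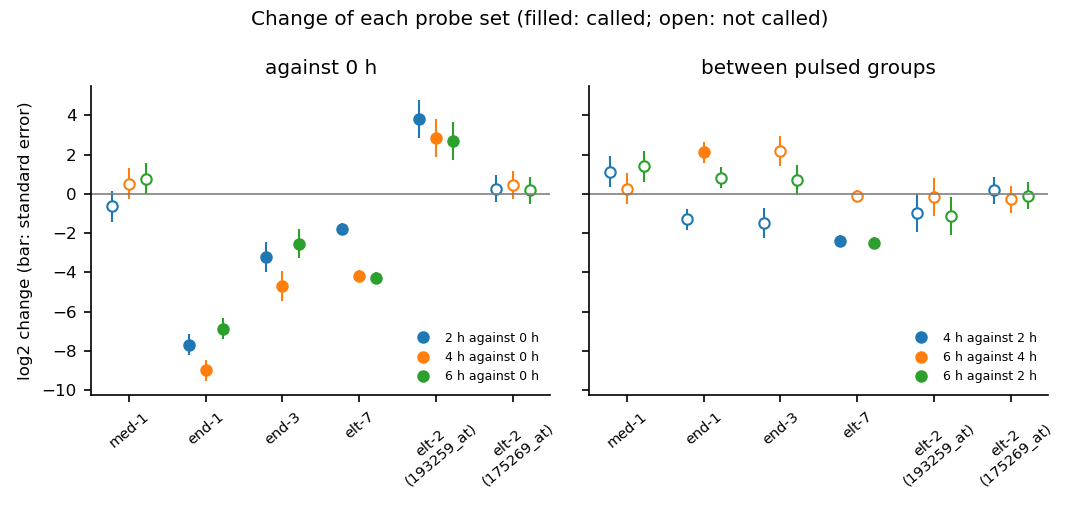
Log2 change of each probe set of the cascade, against 0 h on the left and between groups that had all received the heat pulse on the right, with bars for the standard error from limma. Filled circles were called and open ones were not. *end-1* shows the deepest fall against 0 h and *elt-7* the only lower calls between pulsed groups.

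*end-1* and *elt-7*, which were above the reference level on every array of 0 h and 2 h, were also set against each other within each array, a comparison chosen after the values were seen. The log2 ratio of *end-1* to *elt-7* was 2.16 ± 0.23 at 0 h and -3.75 ± 0.51 at 2 h (SD of 3 arrays), with no overlap between arrays and a difference of -5.91 ± 0.32 (standard error). The 2-sided exact permutation test gave p = 0.1, the smallest that 3 against 3 arrays allow, and an adjusted p of 0.3 over the 6 ratios and steps computed, so that this design could not reach the threshold. Ratios with *end-3* are not given, since 1 of its 2 h arrays and all of its 4 h arrays lay below the reference level.

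*elt-2*, the factor that maintains the intestine, was read differently by its 2 probe sets. At 193259_at the signals were 12.9, 12.5 and 10.5 at 0 h, all below the reference level, and 280.2, 175.9 and 96.9 at 2 h, all above it. The 4 h arrays were spread, at 19.2, 238.9 and 141.1, as were the 6 h arrays at 134.6, 106.5 and 31.8. No array after the pulse was as low as those before it. The rise by 2 h was at least 2.42-fold (log2 change 3.82 ± 0.96, limma adjusted p = 0.00434). At 4 h the bound was 1.24-fold, or 2.63-fold without 4 h replicate A, and no bound above 1 was left without 4 h replicate B or C. At 6 h it was 1.10-fold, or 1.72-fold without 6 h replicate C, and again no bound above 1 was left without 6 h replicate A or B.

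The calls of this probe set at 4 h and 6 h, with adjusted p of 0.0267 and 0.0299, were lost in 5 and 9 of 17 alternatives. With signals raised to the reference level the log2 changes at 4 h and 6 h were 0.93 and 0.52 and neither was called, and the 6 h call was also lost with either other scaling of the arrays. The 4 h call was lost without 0 h replicate C (adjusted p = 0.059), 4 h replicate B (0.157) or 4 h replicate C (0.106). The 6 h call was lost without any single 0 h array (adjusted p from 0.0506 to 0.0634) and without 6 h replicate A (0.112) or B (0.0939). At 2 h the call held in all 17 alternatives, with adjusted p from 0.00379 to 0.0368. This probe set was tested only through arrays taken after the pulse, so that its calls are no independent support for a rise. The other probe set, 175269_at, read 95.7, 41.8 and 121.5 at 0 h and 153.3, 54.5 and 102.8 at 2 h. It stayed between 71.8 and 135.1 in the 6 later arrays, and its groups overlapped at every step. Its log2 change was 0.27 ± 0.69 at 2 h and 0.18 ± 0.69 at 6 h, with adjusted p of 0.828 and 0.871, and the 6 h sign turned with arrays scaled to a common median. Over the 12 arrays the 2 probe sets had a Pearson's r of 0.19, a description over arrays of 4 groups. Neither exceeded a signal of 280.2 in any array.

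Across the 12 arrays *end-1* followed *end-3* (r = 0.851) and *elt-7* (r = 0.808), and *end-3* followed *elt-7* less closely (r = 0.671). These are descriptions, since all points share the split between 0 h and later groups. *elt-2* at 193259_at ran opposite to *end-1* (r = -0.752) and *end-3* (r = -0.646). *med-1* had r between -0.276 and 0.018 with the other probe sets.

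The genes most like each member were sought by Pearson's r of log2 signal over the 12 arrays, among 7601 tested probe sets (7602 for *med-1*) of 1 other gene whose group means spanned at least 2 on the log2 scale. For *end-1* they were *fbxb-63* (r = 0.994), *set-22* (r = 0.988) and *C37C3.9* (r = 0.988). *fbxb-63* went from 16320 ± 1890 at 0 h to 498.2 ± 326 at 2 h and 437.3 ± 67.6 at 6 h (means ± SD of 3 arrays). All 3 shared with *end-1* a lowest group mean at 4 h and a higher one at 6 h. The genes in this paragraph were picked for likeness, so that a shared time course is not a separate result. For *end-3* they were *T22B2.1* (r = 0.935), *C05D2.8* (r = 0.925) and *ahr-1* (r = 0.924), the last of which encodes the worm aryl hydrocarbon receptor. For *elt-7* they were *T16G12.13* (r = 0.990), *W06D11.2* (r = 0.989) and *spsb-2* (r = 0.984). *T16G12.13* stepped down as *elt-7* did, from a mean of 39360 at 0 h to 9845 at 2 h, 1859 at 4 h and 1380 at 6 h. For the dim probe sets the best matches were weaker, at r = 0.912 for *med-1* (*gtnt-2*), 0.917 for *elt-2* at 193259_at (*T05A8.7*) and 0.778 for *elt-2* at 175269_at (*Y38C9B.3*).

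**Figure D3:**
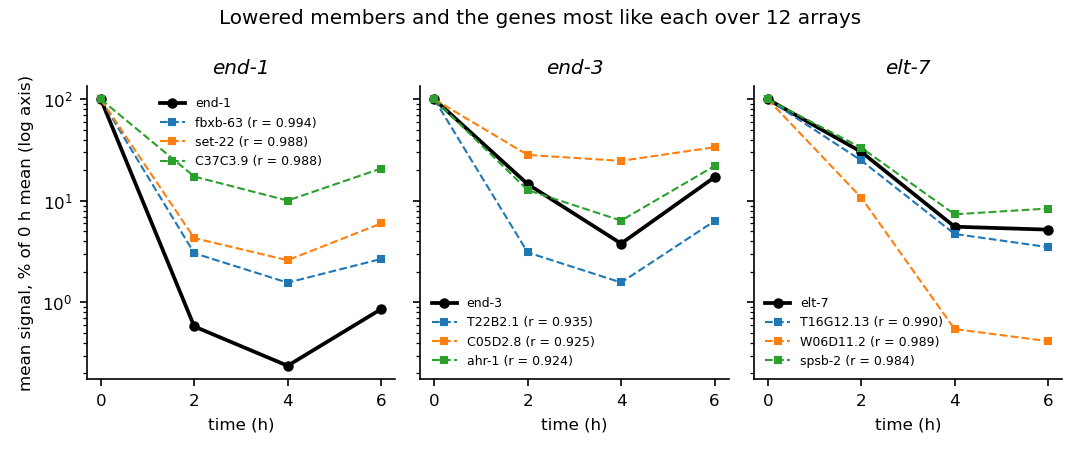
Mean signal of *end-1*, *end-3* and *elt-7* (black) at 4 time points, as a percentage of the 0 h mean on a log axis, with the 3 genes whose log2 signals correlated best with each over the 12 arrays (dashed, with Pearson's r). *end-1* fell to 0.58% by 2 h, further than its 3 matches, and *elt-7* reached 5.57% at 4 h.

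*end-1* and *end-3* are near neighbors, with 4 protein coding genes between them in the RefSeq order. Of these, 3 had a tested probe set of their own. *droe-4* was called lower at 2 h, with a mean of 986.9 at 0 h and 60.17 at 2 h, and *ddx-17* was called lower as well, from 13170 to 6190. *ric-7*, by contrast, was called higher at 6 h, from 61.2 at 0 h to 1006. At 2 h, therefore, 2 of the 3 neighbors were called lower, against the 9.55% given above, and at 6 h 2 were lower and 1 higher. These neighbors were looked up after the values of *end-1* were known.

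The inputs to the cascade, SKN-1 and the Wnt and kinase genes that act on POP-1, numbered 14 with a tested probe set. At 2 h 2 were called lower and 5 higher, beside 9.55% and 15.5% of all tested probe sets. At 6 h 2 were lower and 1 higher, beside 15.6% and 21.7%, or 5 lower and 1 higher with arrays scaled to a common median, beside 19.4% and 16.8%. The lower counts without that scaling were near the share over all tested. Their median log2 change at 6 h was -0.52, against 0.31 over all tested probe sets. *mom-2*, which encodes the Wnt ligand that signals to EMS, fell from 1864 ± 343 at 0 h to 263.6 ± 102 at 2 h (log2 change -2.88, limma adjusted p = 0.0122) and was at least 10.1-fold lower at 6 h. *mom-5*, a Frizzled receptor gene, was at least 5.53-fold lower at 6 h, although its other probe set had a log2 change of 0.36 and was not called. *apr-1*, the gene of the APC homolog, was 2.43-fold higher at 2 h and 3.29-fold higher at 6 h.

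The direct regulators of the members, named here after their values were seen, differed from each other at 2 h. *skn-1* rose 12.4-fold at the probe set read, from 162.1 ± 66 to 1896 ± 194 (SD, n = 3 each), with an adjusted p of 0.0389, and was 106.1 ± 89.7 at 6 h. Another of its probe sets was called higher at 6 h, with a log2 change of 1.98. *pop-1*, the TCF factor that represses or activates the *end* genes according to Wnt signaling, fell at least 4.14-fold by 2 h, from 336.0 ± 130 to 55.97 ± 40.5 (limma adjusted p = 0.00562). At 6 h *pop-1* was not called, at a log2 change of -1.78 (adjusted p = 0.0711).

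GATA factor genes other than the 6 of the cascade fell in part alongside *end-1* and *elt-7*. Of the 4 with a tested probe set, *egl-18* and *elt-1* were called lower at both 2 h and 6 h and none was higher. Over all tested probe sets 9.55% were lower and 15.5% higher at 2 h, and 15.6% and 21.7% at 6 h. The median log2 change of the 4 genes was -2.05 at 6 h, against 0.31 over all tested. *egl-18*, an epidermal seam cell factor, fell from 6847 ± 1150 at 0 h to 498.1 ± 114 at 2 h and 416.0 ± 116 at 6 h (means ± SD of 3 arrays), and its other probe set was called lower as well. *elt-1*, which specifies epidermis, fell from 906.3 ± 67.7 to 70.4 ± 17.2 at 2 h (limma adjusted p = 0.00814). *elt-3* and *elt-6*, which are epidermal too, were not called at 6 h and changed by -0.11 and -0.19 on the log2 scale. *elt-4*, a neighbor of *elt-2*, had no probe set of its own.

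Most genes that specify other early lineages also fell. Of 10 tested, 6 were called lower at 2 h and 8 at 6 h, and none higher at either time, beside 9.55% lower at 2 h and 15.6% lower at 6 h over all tested probe sets. Their median log2 change was -3.26 at 6 h and -3.62 with arrays scaled to a common median. *ceh-51*, a homeobox gene of the MS lineage, which is the sister of E and also downstream of the MED proteins, fell from 19210 ± 2910 at 0 h to 507.3 ± 159 at 2 h and 58.07 ± 41 at 6 h (means ± SD of 3 arrays). The fall of *ceh-51* was 38.8-fold by 2 h, beside 205-fold for *end-1*. *hnd-1*, a HAND factor gene of mesodermal precursors, fell 83.5-fold by 6 h. The T-box genes *tbx-37* and *tbx-38*, which act in the anterior AB lineage, were lower by no less than 7.78-fold and 15.4-fold at 6 h. *tbx-37* would not have been tested without its 0 h arrays, so that its calls against 0 h are not independent of the filter. *pha-4* and *pal-1*, not called at 6 h at the probe sets read, each had another called lower, at log2 changes of -3.54 and -3.69. A further probe set of *pal-1* was not called.

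**Figure D4:**
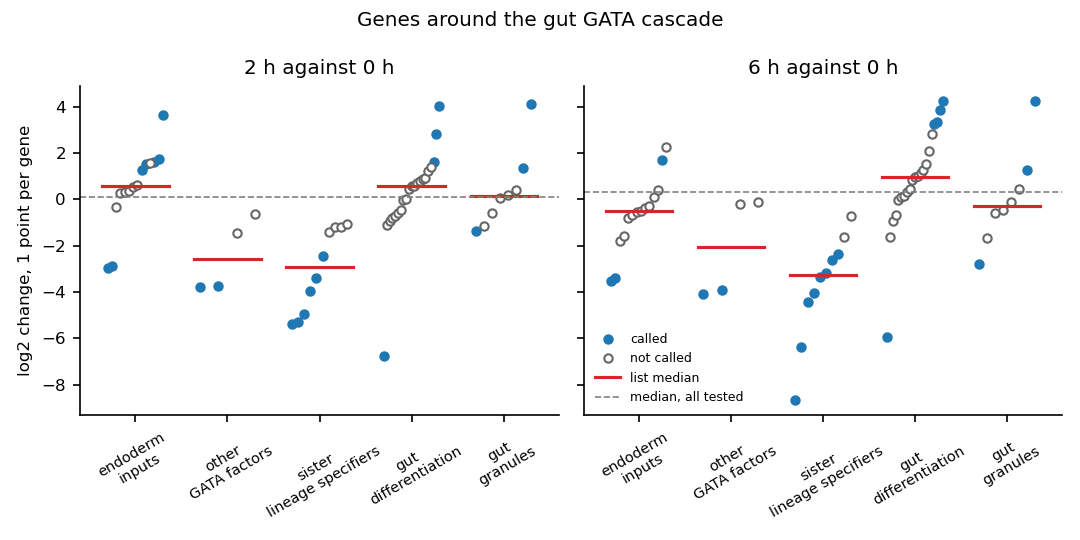
Log2 change of the tested genes of 5 lists around the cascade, 1 point per gene, at 2 h (left) and 6 h (right) against 0 h. Filled points were called, red bars are list medians and the dashed line is the median of all tested probe sets, 0.11 at 2 h and 0.31 at 6 h. Specifiers of other early lineages lie mostly far below the dashed line, and gut differentiation genes lie on both sides of it.

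Genes of the differentiated gut, which lie downstream of ELT-2 and ELT-7, were called in both directions. Of 24 such genes, 21 were tested. At 6 h 4 of the 21 were called higher and 1 lower, beside 21.7% and 15.6% of all tested. With arrays scaled to a common median the counts were 4 and 3, beside 16.8% and 19.4%. The higher counts were near these shares. The median log2 change was 0.96, against 0.31 over all tested probe sets. *elo-2*, a fatty acid elongase gene, went from 78.07 ± 51.4 to 1209 ± 166, a rise of at least 13.3-fold (limma adjusted p = 1.83e-07). The protease genes *cpr-6* and *asp-1* rose by no less than 5.94-fold and 1.87-fold, and *asp-3* by no less than 4.21-fold. *asp-1* and *asp-3* exceeded the reference level on none of the 0 h arrays. They were tested only through later ones, so that their calls against 0 h are not independent of the filter. *lys-4*, a lysozyme gene, went the other way, from 1707 ± 61.6 at 0 h to 19.1 ± 14 at 2 h and 38.93 ± 28.2 at 6 h (means ± SD of 3 arrays). It was the 1 gene of the list called lower at 6 h. Only its 0 h arrays exceeded the reference level, so that its calls against 0 h are not independent of the filter either.

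Signals of gut products were mixed, with 9 of the 24 genes above the reference level on all 6 h arrays, among them *act-5* (mean 282.0), *vit-6* (363.9) and *mtl-1* (277.4), with no call for these 3 at 6 h against 0 h. *ges-1*, the gut esterase gene, had a mean signal of 41.87 ± 38.3 at 0 h and 39.43 ± 33.8 at 6 h, and the intestinal intermediate filament gene *ifb-2* had 45.8 ± 57.4 and 68.2 ± 89.7 (SD, 3 arrays a group). Summed over the 24 genes, signals were 3524 to 4539 at 0 h and 4464 to 5554 at 6 h, and 9 genes at 0 h and 4 at 6 h lay at or below the reference level on every array. Of 8 tested genes of gut granules, 2 were called higher and 1 lower at 6 h. This is near the 21.7% and 15.6% of all tested probe sets. With arrays scaled to a common median the counts were 1 and 4, beside 16.8% and 19.4%. *glo-4* rose at least 15.1-fold and *vps-41* 2.42-fold, while *wht-2* fell 6.91-fold. One other probe set of *glo-4* was called higher and one was not called, with log2 changes of 2.51 and -0.04.

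Markers of muscle, germline and embryonic age moved over the same hours, and most of those of other tissues were not called. All 9 body wall muscle markers, which include the induced gene *hlh-1*, were called higher at 6 h. Their summed signal went from between 918.5 and 2841 at 0 h to between 264000 and 323700. *myo-3*, *unc-15* and *tnt-3* exceeded the reference level on none of the 0 h arrays. They were tested only through later ones, so that their calls against 0 h are not independent of the filter. Of 6 germline markers, 5 were called lower at 2 h, and their summed signal fell from between 16800 and 18300 to between 4560 and 6172. Of 9 maternal transcripts, none was called lower at 2 h and 3 were called higher, with sums of 23720 to 33040 at 0 h and 30380 to 36160 at 2 h. At 6 h 7 of the 9 were lower, with sums of 693.1 to 5804. Among the maternal transcripts not called at 2 h, *pos-1* had a log2 change of -2.79 ± 1.64 and *oma-2* one of -1.63 ± 0.60 (adjusted p = 0.28 and 0.0581), and the germline markers called lower included *pie-1*, *mex-1* and *cey-2*, which are supplied maternally too. Of 7 neuron markers none was called at 2 h and 1 was higher at 6 h. Of 6 epidermis markers 1 was lower at 2 h, and 1 was lower and 1 higher at 6 h. *lin-1* was not called at the probe set read. At 6 h it was called higher at another (log2 change 3.15) and at one shared with *elk-2* (3.17). Other probe sets of *lin-26*, *elt-3* and *che-14* were not called. Of 6 pharynx markers 2 were lower at 2 h, and 1 was lower and 2 higher at 6 h. Among these, *tni-4* exceeded the reference level only on 0 h arrays and *ceh-22* only on 4 h and 6 h arrays. The germline marker *pgl-1* would not have been tested without its 0 h arrays. Calls of these genes against 0 h are not independent of the filter. Other probe sets differed at 6 h, with *pha-4* called lower (log2 change -3.54) and *ceh-22* not called (2.62). Over all tested probe sets 9.55% were lower and 15.5% higher at 2 h, and 15.6% and 21.7% at 6 h. The epidermis counts at 6 h were near these shares. The part of the marker shifts in the changes of the gut factors was not tested.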

How the data were processed

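MAS5 signals of 12 Affymetrix *C. elegans* arrays were used. The intensity values were deposited on a linear scale, scaled by the authors so that the mean with 2% left off at each end was 500.2 to 500.3. RNA had been amplified by 20 cycles of PCR. The MAS5 version was not given in the sources used here. Of 22625 probe sets, 77 controls were left out. Annotation gave 1 gene to 20766 of the rest, several to 887 and none to 895. Log2 signals were fitted in limma 3.58.1 under R 4.3.3 (data.table, version 1.17.8), with time as group, a variance trend and robust estimation, and p values were adjusted by Benjamini and Hochberg over each contrast. The fit was tested on simulated data. Median SDs between replicates were 0.467 to 0.552 on the log2 scale, and the number of arrays limits the precision.

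Listed genes were read at their brightest probe set of 1 gene. Named genes were all member probe sets, up to 4 called genes per list with the largest change at 6 h, and the 3 best correlated genes per member. Others were named after their values were seen. Members and lists were chosen with earlier results of these data known. No batch is named in the labels, which call the samples independent. Alternatives changed scaling, filter, pseudocount, variance model, samples, pairing, fold threshold or left out 1 array. No sequences were printed.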

Additional observations from a re-analysis of the deposited data

How the results depend on the processing

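The lower calls of *end-1*, *end-3* and *elt-7* against 0 h held in all 17 alternatives for each comparison, except *end-3* at 6 h without 0 h replicate A, with log2 changes at 2 h of -8.25 to -7.24, -3.87 to -2.21 and -2.05 to -1.45. Replicate letters did not pair the arrays. Deviations of arrays with the same letter correlated at -0.0258 to 0.0332, 0 of 18 pairs were over 0.1, and with the letter as a replicate block the counts at 6 h stayed 3 lower and 1 higher and none of 78 results changed its call. The higher count of 1 at 4 h and 6 h against 0 h, which is *elt-2* at 193259_at, was 0 at both times with only the 2 groups compared or with dim signals set to the reference level, and it was also 0 at 6 h with arrays scaled to a common median or quantile normalization. With 1 array left out it was 0 to 1 at both times. The cause was not tested. From 4 h to 6 h the higher count was 2 with 16 added to each signal, which adds *end-3*, and 0 to 2 with 1 array left out. The lower count from 2 h to 4 h was 1 to 2 and the higher count from 2 h to 6 h 0 to 1 with 1 array left out.

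Signs turned only where no change was called. For *med-1* these were 0.08 at 2 h against 0 h with dim signals set to the reference level (-1.23 to 0.41 with 1 array left out) and -0.02 from 4 h to 6 h with either other scaling. For *elt-2* at 175269_at the change at 6 h against 0 h was -0.18 with arrays scaled to a common median, -0.22 with quantile normalization and -0.06 with dim signals set to the reference level. With 1 array left out it ranged from -0.27 to 0.50, at 2 h against 0 h from -0.18 to 0.68, from 2 h to 4 h from -0.22 to 0.52 and from 2 h to 6 h from -0.49 to 0.25. For *elt-2* at 193259_at the range was -1.69 to 0.12 from 2 h to 4 h and -1.25 to 0.56 from 4 h to 6 h, for *end-3* -0.33 to 1.34 from 2 h to 6 h, and for *elt-7* -0.29 to 0.12 from 4 h to 6 h.

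At 6 h against 0 h, input genes called lower numbered 5, 4 and 4 with median scaling, quantile normalization and raised signals, and those called higher 2 with raised signals or 16 added and 1 to 2 with 1 array left out. Gut differentiation genes called lower numbered 3 with either scaling and 1 to 2 with 1 array left out, and those called higher 7 with raised signals. Gut granule genes called lower numbered 4, 2 and 2 with median scaling, quantile normalization and raised signals, those called higher 1 with either scaling or only the 2 groups compared, and each 1 to 2 with 1 array left out. Over all tested probe sets, the lower count from 4 h to 6 h was 1532, or 2294 with median scaling.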
